A study of Salmo salar with 60 samples.

Results

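In the hindmost part of the gut of Atlantic salmon, 300 of 43627 array probes were the brightest whose median signal was not above 60000. Nearly all of them were still saturated in some fish. They were chosen by level: for each probe, the median Cy5 signal over 59 fish was taken, the 355 probes with a median above 60000 were set aside as near the upper end of the scanner range, and the 300 highest of the rest were kept. They occupied ranks 356 to 655 by median signal, with 355 brighter probes above them. The signal of a probe depends on how well it binds and on the dye as well as on the transcript, so the ranks order probes by brightness and do not show that these transcripts are the most abundant. Probes carried a position on the array (column C, row R) and no gene name in the sources used here, so the genes behind them, their sequences and the markers of the tissue could not be checked, and each probe is named by its position. All levels below describe the values that chose the probes and were not tested; differences between days, tanks and fish were not used in the choice.

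Each fish had 1 array, on which Cy5-labelled RNA of a piece of its distal intestine was hybridised against Cy3-labelled RNA pooled from 18 fish, 3 of each sampling day. All fish were of the Sunndalsøra breed, weighed 500 to 600 g at the start, lived in running seawater and ate a reference diet with 563 g of fishmeal per kg for 7 days before sampling began. Day 0 fish (n = 9) had eaten only this diet, whereas fish of days 1, 2, 3, 5 and 7 (n = 10 each) came from 2 tanks that then received a diet in which 200 g per kg of defatted soybean meal replaced part of the fishmeal. The 5 fish of each tank and day were separate animals (4 in tank 1 on day 0), only fish with gut content throughout were sampled, and all fish sampled after day 0 were on soybean meal, so feeding and time cannot be told apart.

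The distal intestine of salmonids absorbs nutrients and takes up intact protein through enterocytes with large vacuoles. Soybean meal is known to cause an inflammation of this region in Atlantic salmon, in which the mucosal folds shorten, the vacuoles are lost and immune cells enter the tissue. In vertebrate gut, the transcripts present at the highest level usually include those for ribosomal proteins, translation factors, mitochondrial respiration, the cytoskeleton and products specific to enterocytes. Because tissue pieces of mixed cells were used, fewer cells of a type and less RNA per cell cannot be told apart in any value given here.

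The median background-corrected signal of an array ranged from 55.5 to 125 in Cy5 and from 53.5 to 92 in Cy3, in the scanner's arbitrary units. Differences were measured as the log ratio, log2 of Cy5 over Cy3 after adding 50 to both, normalised within each array by loess. A loess fit removes any shift that all bright probes of an array share, so the log ratios show how these probes differ from others of like brightness and not whether bright probes moved as a body. Log ratios of pairs of arrays correlated between -0.447 and 0.625 over all probes, and which way a ratio points is known from the dyes in the labels alone. On the first principal component of all probes, 9 arrays scored below -50, a limit set after seeing the data. Their scores ran from -115 to -57.6, and the next arrays had -45.0 and -32.4, so no clear gap marks them off. They are called the arrays that stood apart. Leaving them out draws on the same log ratios, so spreads, counts and p-values without them are a description. From days 0, 1 and 2 they were day 0 replicates 2 and 7, day 1 replicate 7 and day 2 replicate 10. The others were day 5 replicates 8, 9 and 10 and day 7 replicates 2 and 7. Of the 9, 7 came from tank 1 and 2 from tank 2, and they lay on 7 of the 15 slides. The median number of the 300 probes at a Cy5 signal of 60000 or more was 147 on these 9 arrays and 53 on the other 50.

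The median Cy5 signal of the 300 probes ran from 59811.5 down to 34937, with a middle value of 45401. The median over all 43627 probes was 73.5. In the reference pool, the same probes had median Cy3 signals between 18319.5 and 65197.5, with a middle value of 34276, and 279 of them were dimmer in Cy3 than in Cy5. The median Cy5 to Cy3 ratio before normalisation was 1.33. At the lower limit, C021R090 (34999.5) and C018R038 (34937) fell just inside, and C245R136 (34922) and C179R005 (34910) just outside. At the upper limit, C180R034 (59811.5) and C100R143 (59651) were kept, and C143R059 (60337.5) and C100R029 (60030.5) were set aside.

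The brightest probes were largely the same on all days. When the probes were ranked on the fish of 1 day alone, between 619 (day 5) and 638 (day 0) of the 655 brightest were the same as over all fish. The choice of the 300 below the limit was less stable, with 266, 249, 248, 241, 238 and 252 of them kept on days 0, 1, 2, 3, 5 and 7, and the fish of each day are also part of the ranking over all fish. The Cy3 channel of the pool gave 597 of the same 655. Many spots nevertheless reached the upper end of the range in single fish: the Cy5 signal was 60000 or more on 24.2% of the spots of the 300 probes, against 3.51% in Cy3. Only 4 of the 300 probes stayed below this signal in every fish, and the probes nearest the limit exceeded it in up to 29 of 59 fish. A high Cy5 value of such a probe is a lower bound, and so is the drop of a log ratio where Cy3 was saturated.

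Together, the 300 probes held a median of 15.3% of the summed Cy5 signal of a fish, with a range from 12.6% to 17.0%. The 355 brighter probes held 24.2%, with a range from 17.3% to 32.6%, where saturation caps the value. In the order of days 0, 1, 2, 3, 5 and 7, the median share of the 300 probes was 15.1%, 15.8%, 15.3%, 14.8%, 15.0% and 15.3%. Fish of every day overlapped those of every other day, the lowest fish of a day lying between 12.6% and 13.8% and the highest between 15.8% and 17.0%. The pool, labelled with Cy3 on the same arrays, gave 14.3%, with a range from 12.3% to 15.7%.

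The 4 highest of the 300 probes were C180R034, C100R143, C250R166 and C104R167. C180R034 ranged from 30248.5 to 65300 in Cy5, with day medians between 53606 on day 1 and 63413 on day 5, and was at 60000 or more in 29 fish. C100R143 ranged from 19303 to 65362.5 and C250R166 from 19738.5 to 65198, each likewise saturated in 29 fish. For C100R143 the pool was saturated on most arrays too, with a median Cy3 of 64240.5. The spread of its log ratio is therefore not directly comparable with that of the others. All days of these probes overlapped. C104R167 differed from them in its low fish. Its day medians lay between 43584 on day 0 and 64788 on day 2. The lowest fish of days 0, 1, 2, 3, 5 and 7 gave 15314.5, 5035, 18531, 36512, 21068 and 4724, and leaving out the 9 arrays that stood apart these were 15314.5, 44055, 41986, 36512, 34397.5 and 43718. Among fish of the same day, the log ratio of the first 3 probes had a standard deviation of 0.39, 0.50 and 0.41 on the log2 scale, and that of C104R167 one of 1.12.

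Fish of the same day differed in these probes, and whether by more than in other probes depended on the offset. The within-day standard deviation of the log ratio had a median of 0.391 on the log2 scale over the 300 probes, against 0.313 over all 43627 probes and 0.360 over the 16098 probes with a mean log2 intensity above 8. With signals floored at 1 and no offset, the 300 probes had 0.402, the probes above 8 had 0.388 and all probes 0.710, and the authors' deposited table gave 0.402 and 0.711 for the 300 and for all, so the order against all probes turned. The offset narrows the ratios of dim probes and leaves those of bright ones nearly as they were. With the offset, the 300 probes next in rank gave 0.396 and the 355 brighter ones 0.315. The medians of the 355 lie above 60000, where saturation can narrow the spread. Single values ran from 0.151 to 1.77. A standard deviation above 1 was found in 16 of the 300 probes (5.33%) and in 2.57% of the probes above 8. Among all 43627 probes it was found in 439 (1.01%). With no offset the share was again 5.33% of the 300 but 37.3% of all probes, so this order turned too. Without the 9 arrays that stood apart, the medians were 0.341 for the 300 probes and 0.301 for all probes. In those 50 fish, 1 of the 300 probes exceeded 1, against 176 of all 43627 probes.

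The spread was larger in Cy5, which carried the single fish, than in Cy3, which carried the pool. No array had the dyes exchanged, so a spread between fish and a spread of the dye cannot be told apart. Saturation also differed between the channels, at 24.2% of the spots of the 300 probes in Cy5 and 3.51% in Cy3. After quantile normalisation of each channel alone, the within-day standard deviation of the 300 probes had a median of 0.409 in Cy5, where every array carried another fish, and 0.201 in Cy3, where every array carried the same pool. Cy5 varied more than Cy3 for 293 of the 300 probes (97.7%) and for 68.7% of all probes, whose medians were 0.268 and 0.211 with the offset in place. By day, the median spread of the log ratio over the 300 probes ran from 0.328 on day 3, the day with none of the arrays that stood apart, to 0.445 on day 7.

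The 3 most variable probes lay at least 2-fold below their median log ratio in 12 to 15 of 59 fish. That they were bright in most fish follows from the choice by median signal. With medians this near the upper end of the scanner range, their Cy5 had more room to fall than to rise. C108R095 had a standard deviation of 1.77 on the log2 scale and a Cy5 signal from 465.5 to 65256.5. Its medians for days 0, 1, 2, 3, 5 and 7 were 55214, 44410, 56899, 39481, 28874 and 43259. Each day held fish above 60000, and the lowest fish of the same days gave 16394, 465.5, 6279, 18210, 14502 and 1048.5, so all days overlapped. The log ratio spanned at least 151-fold between the lowest and the highest fish, Cy3 being saturated in the lowest, and 12 fish lay at least 2-fold below the median. On the arrays of these 12 fish the pool gave Cy3 signals of 20284 to 65228 for the same probe. Their median Cy3 of 46683 was above that of the other fish, 25650.5, and 10 of the 12 lay above the median of all arrays, although the pool was the same. The median Cy5 was 19918.2 in the 12 fish and 53040 in the others. Cy5 was thus lower and Cy3 higher where the log ratio was low. The fish were picked by this log ratio, which favours low Cy5 and high Cy3, so this is a description. After quantile normalisation of each channel alone, the standard deviation of this probe was 1.45 in Cy5 and 0.69 in Cy3.

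C140R061 (standard deviation 1.67) ranged from 1993.5 to 65274 in Cy5, a span of at least 85.5-fold in the log ratio, with Cy5 saturated in the highest fish and 13 fish at least 2-fold below its median. C251R078 (standard deviation 1.52) ranged from 2558 to 65379, a span of 54.2-fold, with 15 such fish. For these probes too Cy3 was higher in the low fish, again picked by the log ratio. The medians were 37388.5 against 27941.8 in the others for C140R061 and 31897.5 against 25545 for C251R078. Day 1 replicate 7, day 2 replicate 10 and day 7 replicates 2 and 7 gave the 4 lowest log ratios of C108R095 and of C251R078. For C140R061 the same 4 fish and day 0 replicate 7 were the 5 lowest. Without the 9 arrays that stood apart, the standard deviations were 0.59, 0.73 and 0.67 and the spans 8.20-fold, at least 11.6-fold and 10.1-fold. For none of the 3 probes was a difference between days larger than the spread of fish detected: with limma the p of any difference among the 6 days was 0.690 for C108R095, 0.846 for C140R061 and 0.455 for C251R078. In the 50 fish it was 0.0110, 0.0276 and 0.0232, with limma adjusted p of 0.439, 0.508 and 0.491. The 9 arrays were left out by a score to which these log ratios contributed, so the p-values in the 50 fish are a description.

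The low fish shared the same probes. The first principal component of the 300 probes held 49.6% of their variation over the 59 fish and the second 6.12%; over all probes the first held 26.9%. Without the 9 arrays that stood apart, the first component held 18.5% for the 300 probes and 14.6% for all. By correlation of the log ratio with the score of a fish on this component, 86 probes lay above 0.5, 46 below -0.5 and 168 between. All 16 probes with a standard deviation above 1 belonged to the 86. In the 9 arrays, the median log ratio of the 86 probes relative to each probe's own median lay between -1.43 and -0.51, against -0.43 to 0.44 in the other 50 fish. The 46 probes lay between 0.39 and 0.68 in the 9 arrays and between -0.45 and 0.31 in the others. The 86 and the 46 probes were sorted by these same values, so the separation is a description of the fish. Between the 2 sets the median Cy5 signal was close, at 45357 and 41947, and the median Cy3 signal was 29562 and 38567.

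In counts, 44 of 59 fish had 10 or fewer of the 300 probes at least 2-fold below the probe's own median, and the median fish had 8. In 4 fish this number exceeded 60: it was 67 in day 1 replicate 7, 65 in day 2 replicate 10, 63 in day 7 replicate 2 and 67 in day 7 replicate 7. The next were 44 in day 0 replicate 7 and 43 in day 5 replicate 9. Across the 4 fish, 42 probes were low in each and 98 in any. Day 0, before any soybean meal, included 1 fish with 44 low probes and 1 with 25, and day 3 was the only day on which no fish had more than 9. The same arrays departed over the whole probe set as well: in the 4 fish, 22.3% to 24.7% of the 300 probes and 7.03% to 10.9% of all probes lay 2-fold or more from their median in either direction. The median fish had 3.00% and 1.21%. Counted by direction, the median fish had 8 of the 300 probes at least 2-fold below and 1 at least 2-fold above (0 to 12 over all fish). No count by direction is given for all probes, so the difference is not shown to be particular to the 300. The upper end of the scanner range leaves bright probes less room to rise than to fall. Whether this had a part in the difference was not tested.

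The array quality weights estimated by limma had a median of 0.535 in the 9 arrays that stood apart (0.366 to 1.10) and of 1.13 in the other 50 (0.654 to 1.58), and the 5 lowest weights all belonged to the 9. Between 16 and 168 of the 300 probes were saturated on the 9 arrays, against 1 to 191 on the others, and 8 of the 9 lay above the median of the others. The weights were estimated from the same log ratios that set the 9 arrays apart. They are therefore no separate measure of quality, and their difference is a description. Whether saturation or array quality had a part in the low fish was not tested.

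Correlations between the 300 probes across the 59 fish were taken after removing day means. They are given as a description, since all probes share the arrays. They include the 9 arrays that stood apart. Without those, the first component of the 300 probes held 18.5% of their variation, against 49.6% with them. Pair counts without those arrays, or for all probes, are not given here. Of 44850 pairs, 486 had a correlation above 0.8, and these pairs involved 66 of the 300 probes. Only 14 pairs lay below -0.8, and the median over all pairs was 0.02. With day means left in, and over the same 59 fish, C108R095 correlated above 0.9 with 127 of all probes. Of these, 11 were among the 300 and 18 among the 355 brighter ones. The others were dimmer, the median signal over the 127 being 10561 and the lowest 384. The set correlated with C108R095 thus reached below the 300 in signal while staying above the 73.5 of the typical probe.

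At the other end, 94 of the 300 probes (31.3%) never departed 2-fold from their own median in any fish, against 69.5% of all probes and 49.9% of those with a mean log2 intensity above 8. With no offset the shares were 29.7%, 17.4% and 43.4%, so the order against all probes turned. Over the 50 fish the number was 132 (44%), against 79.1% of all probes and 67.9% of those above 8. The least variable was C077R067, with a standard deviation of 0.151 on the log2 scale. Its day medians ran from 32215 on day 1 to 41859 on day 2, and its log ratio spanned 1.72-fold over all 59 fish. C185R153 (0.165) had day medians from 32753 to 39230 and spanned 1.70-fold, with no saturated spot. C151R099 (0.178) had day medians from 44588 to 54389 and spanned 2.04-fold, with Cy5 saturated in 11 fish. All days of these 3 probes overlapped.

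Each feeding day was compared with day 0, a comparison in which feeding and time cannot be told apart. With limma and Benjamini-Hochberg adjustment over all 43627 probes, 0 of the 300 probes passed an adjusted p of 0.05 on day 1, 2, 3, 5 or 7 (background 0% of all probes on each day), and the smallest adjusted p among them was 0.989, on day 5. Before adjustment, limma gave 5 of the 300 probes a p under 0.05 on day 1 (1.67%), where 2.82% of all probes had one. The count was 5 (1.67%) for day 2, with a background of 3%, and 8 (2.67%) for day 3, with a background of 4.78%. For day 5 it was 10 (3.33%, background 4.03%) and for day 7 again 5 (1.67%, background 2.89%). In this setting the share lay below the background on each of the 5 days, and all 5 comparisons use the same day 0 fish. Over 16 alternatives it lay above the background in 1 each for days 1, 2 and 3, in 3 for day 5 and in 5 for day 7, so its place beside the background is not firm. Among them, a fit of only the 16098 probes with a mean log2 intensity above 8 turned the order on days 1, 2 and 7. The share of the 300 was 1.33%, 1.33% and 1.67% there, against 0.901%, 1.27% and 1.09% of these probes. On days 3 and 5 it stayed below, at 2.33% against 4.63% and 3% against 3.58%. The counts for days 1, 2, 3, 5 and 7 were also taken without the 9 arrays that stood apart, 2 of them from day 0. They were 4 (background 3.04%), 9 (3.81%), 15 (8.73%), 22 (5.89%) and 21 (3.79%), or 1.33%, 3%, 5%, 7.33% and 7% of the 300 probes. The shares for days 5 and 7 were then above the background, and 0 of the 300 passed after adjustment.

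The estimated change of the 300 probes from day 0 ranged from -0.86 to 0.83 on the log2 scale over the 5 days, so that no estimate reached 2-fold. The median change of the 300 lay between -0.02 (day 7) and 0.00, and that of all probes between 0.00 and 0.01. The loess fit takes out a shift shared by bright probes, so a median near 0 does not show that bright probes kept their level. How much of it follows from the normalisation was not tested. The 95% confidence interval lay within 2-fold in both directions for 279 of the 300 probes (93%) on day 1, and for 277 (92.3%), 267 (89%), 268 (89.3%) and 276 (92%) on the later days in turn. For all probes the shares were 98.3%, 98.3%, 97.6%, 97.3% and 98.2%, where the offset of 50 narrows the intervals of dim probes. The median half-width was 0.352 for the 300 probes and 0.288 for all. Saturation of Cy5 on a feeding day can understate a rise, and saturation on day 0 can understate a fall. On day 0 a mean of 66.1 of the 300 probes per fish were saturated in Cy5. The means for days 1, 2, 3, 5 and 7 were 48.2, 86.3, 87.2, 82.8 and 64.8. Saturation therefore limits what these intervals show in both directions.

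The test of any difference among the 6 days gave 12 of the 300 probes at an unadjusted p under 0.05 (4%), against 4.88% of all, and 0 after adjustment (background 0%). Leaving out the 9 arrays that stood apart gave an unadjusted count of 40 (13.3%, background 8.8%) and an adjusted one of 0. The smallest p belonged to C166R054 (0.00123, adjusted 0.969, limma). Its Cy5 medians for days 0, 1, 2, 3, 5 and 7 were 46096, 48024, 37514, 31968, 54045 and 44615, with fish between 19279 and 65338. The mean log ratio was -0.11 ± 0.42 (SD, n = 9) on day 0, 0.28 ± 0.42 (n = 10) on day 1, or 0.16 ± 0.23 (n = 9) without replicate 7 of that day (1.29, the next fish having 0.40), and -0.32 ± 0.43 on day 2. The later means were -0.50 ± 0.64 (day 3), 0.16 ± 0.24 (day 5) and -0.00 ± 0.40 (day 7). Fish of days 2 and 3 were lowest and those of days 1 and 5 highest, with overlap between all days.

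C125R134 followed, with a limma p of 0.00657 (adjusted 0.969). Its Cy5 medians over the same 6 days were 35235, 34151, 48487, 44529, 42993 and 36877. Its change from day 0 on the log2 scale reached 0.35 ± 0.13 (SE) on day 3, was 0.30 ± 0.13 on both day 2 and day 5, and was 0.07 ± 0.13 on day 7. The middle days were higher in median than days 0, 1 and 7, and the fish overlapped. C037R014 (limma p 0.0106, adjusted 0.989) had its highest day on day 5, where 8 of 10 fish were saturated and the log ratio ran from 0.11 to 0.47, against -0.15 to 0.23 on day 0. C219R041 (limma p 0.0134, adjusted 0.998) had its lowest median on day 7, at 26353 against 38930 on day 0, with a change of -0.49 ± 0.26 (SE). Without the 9 arrays that change was -0.18 ± 0.28, and that of C125R134 on day 7 was 0.13 ± 0.15. In the 50 fish the limma p of the 4 probes in the order given was 0.00278, 0.0160, 0.0129 and 0.134 (adjusted 0.384, 0.460, 0.452 and 0.698). These 4 were named by rank of the F test and none passed the adjusted threshold.

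Day identity accounted for a median of 7.38% of the variation of a probe's log ratio over the 300 probes and 7.53% over all probes. Slide identity, with 15 slides of 4 arrays, accounted for 26.2% and 25.5%, and tank identity for 1.69% and 0.859%. These shares grow with the number of classes and are given as a description only.

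Successive days do not involve day 0. From day 1 to day 2, 12 of the 300 probes had an unadjusted limma p under 0.05 (4%, background 4.32%), and from day 2 to day 3 there were 4 (1.33%, background 3.77%). When the 9 arrays that stood apart were left out, these counts were 17 (background 4.62%) and 10 (5.14%). The share exceeded the background in the last pair of steps in this setting, but not in 3 of 16 alternatives for the first of them and in 6 of 16 for the second. Among these, saturated spots set to missing gave 19 of 294 probes (6.46%, all probes 7.22%) and 22 of 294 (7.48%, all probes 8.07%). With only probes of mean log2 intensity above 8 in the fit, the shares of the 300 were 10.7% (all such probes 9.51%) and 9.67% (12.0%). In the main setting, 34 probes were counted from day 3 to day 5 (11.3%, background 7.25%). Of the 34, 13 were higher on day 5 (4.33%, background 3.43%) and 21 lower (7%, background 3.83%). From day 5 to day 7 it was 31 probes (10.3%, background 8.04%), with 6 higher on day 7 (2%, background 3.87%) and 25 lower (8.33%, background 4.17%). After adjustment 0 of the 300 passed in any of the 4 steps (background 0% in each), the smallest adjusted p being 0.581 between days 3 and 5 and 0.351 between days 5 and 7. Both steps share the day 5 fish, of which 3 of 10 were among the arrays that stood apart. In the 50 other fish, 23 of the 300 probes (7.67%, background 5.88%) were counted from day 3 to day 5. From day 5 to day 7 there were then 67 (22.3%, background 11.6%), with 42 above (14%, background 6.02%) and 25 below their day 5 level (8.33%, background 5.61%). The smallest adjusted p in this setting was 0.0530. Array quality weights let the arrays of low weight count less. With them, 8 of the 300 probes (2.67%, background 1.84%) passed the adjusted threshold from day 5 to day 7. The smallest adjusted p (limma) was 0.0306. These weights come from the same log ratios, so this count and this p are a description.

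Fish of the same day came from 2 tanks. With tank beside day in the fit, limma gave 34 of the 300 probes an unadjusted p under 0.05 (11.3%), against 4.44% of all probes, and 0 after adjustment (background 0%), with a smallest adjusted p of 0.955. Of the 34, 13 were higher in tank 1 (4.33%, background 2.1%) and 21 lower (7%, background 2.35%). Without the 9 arrays that stood apart, of which 7 were from tank 1, the count was 18 (6%, background 3.82%). With only 2 tanks, a difference between tanks and the chance choice of their fish cannot be told apart, and the p-values of all comparisons between days leave out any tank effect.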

How the data were processed

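Gene expression was measured on 2-colour oligonucleotide arrays, 1 per fish, labelled with the Agilent Low Input Quick Amp procedure per the labels' protocols. The authors deposited scanner intensity values per spot and channel, already background-corrected per the file headers; neither the scanner software nor the correction method is given in the sources used here. They also deposited a table of log2 ratios of the same arrays, in which the values of each probe have a median near 0 over the arrays, and which served as an alternative. Flag codes came without a key: 62 of the probes in that table were flagged 1 on some array and left out, and code 3 fell on 45.9% of spots of the 300 probes, against 1.96% of all, and on 92.3% of all spots at 60000 or more in either channel. Days, tanks and replicate numbers came from the sample titles; 1 array titled day 1 and tank 0 entered no comparison.

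Signals below 0 were set to 0, 50 was added to both channels, and log2(Cy5/Cy3) was normalised within arrays by loess (span 0.3). This departs from a further normexp correction because the signals were already corrected. The 59 arrays entered 1 fit of day means (lmFit, eBayes; limma 3.58.1, R 4.3.3), and Benjamini-Hochberg adjustment ran over 43627 probes. The tank term was fitted beside day. Tables were made with Python 3.11.15, pandas 2.3.3 and numpy 2.4.6. The fit was tested on simulated data. The number of arrays limits the precision.

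Named were the 4 highest of the 300 probes, the 3 most and 3 least variable, the 2 smallest F test p with a positive and the 2 with a negative change on day 7, and 2 probes on each side of both limits. The 300 probes, the naming rule and the tests were chosen with earlier results of these data known. Same-numbered fish of different days were separate animals, and their deviations from the day means correlated at 0.03 on average over 140 pairs (-0.528 to 0.689), so the numbers were not taken as pairs. Alternatives covered background, offset, normalisation, the deposited table, code 3 and saturated spots, dim probes, slide, tank, replicate number, array weights, moderation, the tank 0 array and the 9 arrays that stood apart. The last, saturated spots and the spread of each channel were added after seeing the data.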

Additional observations from a re-analysis of the deposited data

Results flagged for a closer look

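Within days, 114 sets of values of 9 or 10 fish were searched for a fish whose gap to the nearest other fish was large beside the range of its day (Dixon's 95% criterion), and 19 were found, where chance gives about 1 in 20, or 5.7. The sets are not independent, and 13 of the 19 involve 2 fish. Some sets belong to probes named for the largest spread among fish of the same day, a choice that favours single outlying fish. The score was built from the same values. The 19 can therefore not be weighed against the 5.7. Day 1 replicate 7 had 67 of the 300 probes at least 2-fold below their own median, the next fish of that day having 11. Its score on the first component of the 300 probes was -18.2, against -2.12 for the next fish. Its log ratios were -3.37 for C104R167, -5.72 for C108R095, -4.36 for C140R061 and -4.06 for C251R078, where the next fish had 0.00, -0.87, -0.55 and -0.35. Its log ratio of C166R054 was 1.29, above the next at 0.40. Day 2 replicate 10 had 65 probes below, the next fish having 15, and a score of -16.9 against -0.198. Its log ratios were -2.49 for C104R167, -4.16 for C108R095, -4.01 for C140R061 and -3.79 for C251R078, where the next fish had -0.45, 0.46, -0.49 and 0.04.

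Of the other 6 sets, C180R034 was low in day 1 replicate 5 (-0.741, next 0.01) and in day 5 replicate 4 (-0.737, next -0.00). C037R014 was low in day 1 replicate 9 (-0.312, next 0.00) and C151R099 in day 3 replicate 4 (-0.443, next 0.00). The number of probes at least 2-fold above their median was 5 in day 0 replicate 1, where the next fish had 2, and 12 in day 7 replicate 5, where the next had 6.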

How the results depend on the processing

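Over the alternatives, 172 of 173 repeated counts of the 300 probes past an adjusted p of 0.05 were 0, as in the values reported; the exception was 8 for day 7 against day 5 with array quality weights. The replicate block, with replicate number as a fixed term, changed no call (0 after adjustment in all 10 comparisons of days) and put 4, 6, 17, 13 and 10 of the 300 under an unadjusted p of 0.05 for days 1, 2, 3, 5 and 7 against day 0, where all probes gave 3.02%, 3.09%, 4.89%, 3.88% and 3.06%; the tank comparison was not run with it, because a replicate number mostly lies in 1 tank. Unadjusted counts ranged from 3 to 6 on day 1, 3 to 9 on day 2, 3 to 17 on day 3, 5 to 32 on day 5 and 2 to 21 on day 7 against day 0, from 9 to 26, 3 to 10, 13 to 50 and 8 to 77 for the successive steps, from 4 to 40 among the 6 days and from 14 to 35 between tanks. Over the same alternatives the share of all probes lay between 0.901% and 3.36% for day 1, 1.27% and 4.11% for day 2, 4.08% and 8.73% for day 3, 3.56% and 9.0% for day 5 and 1.09% and 4.22% for day 7 against day 0. It lay between 3.27% and 9.16%, 2.19% and 5.14%, 4.77% and 9.51%, and 3.89% and 16.6% for the steps in turn, between 4.25% and 10.5% among the days and between 3.42% and 4.41% for tanks; the share of the 300 was above that of all probes in 13 of 13 alternatives for tanks, and in some but not all for each other comparison. The median spread was 0.470 (all probes 0.351) with median centring in place of loess and 0.341 (0.301) without the 9 arrays; it was 0.402 (0.710) without the offset and 0.402 (0.711) in the authors' deposited table, where it lay below that of all probes. Of the 300 probes, 145 were shared when ranked by mean log2 signal and 134 by Cy3 of the pool. With no upper limit 0 were shared, which was fixed in advance because 355 probes rank above them. Leaving out probes with code 3 on more than 10% of arrays kept 4, since 296 of the 300 had it that often. The share of the signal held by the 300 probes was 20.2% with the 355 brighter probes left out of the total. With code 3 spots missing 242 of the 300 probes could be tested, and with saturated spots missing 294. Of the 4 probes named by F test, 3 changed the sign of their uncalled day 7 change under 1 setting each: C166R054 to -0.01 with Cy5 alone, C125R134 to -0.07 with code 3 spots missing and C037R014 to 0.01 without normalisation. The cause of these shifts was not tested. Saturation in single fish limits what high values can show.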

Other observations

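The array titled day 1 and tank 0 belonged to no group. The 300 probes held 14.8% of its summed Cy5 signal, their median signal was 49317, and 70 of them were at 60000 or more. The Cy5 signal was 65071 for C108R095, 51593 for C140R061 and 58233 for C251R078.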
